A study of Mus musculus with 8 samples.

Results

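Chromatin in these cultured mouse hippocampal progenitors was read here through the genes of histone methylation and acetylation enzymes. They were taken by name, as protein-coding genes off the Y chromosome whose symbols begin with those of the lysine methyltransferases (Kmt, Setd, Setmar, Ehmt, Ezh, Suv39, Nsd, Prdm, Ash1l), the lysine demethylases (Kdm), the acetyltransferases (Kat, Ep300, Crebbp), the deacetylases (Hdac, Sirt) and the arginine methyltransferases (Prmt). The rule used no measured value and found 77 of the 9140 genes measured, and 8748 of the 9140 were protein coding and off the Y chromosome. A level below is the mean normalised count per cell, that is, the mean number of captured RNA molecules (UMIs) of a gene when every cell is scaled to 8707 molecules on the measured genes. Of the 77 enzymes, 72 reached a level of 0.1 in at least 1 library and 61 in every library. Over all genes, 8079 of 9140 reached it in at least 1 library. Hdac9, Prdm10, Prdm15, Setd4 and Setdb2 stayed below 0.1 everywhere and are not described further.

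Histone tails carry methyl and acetyl groups that writers add and erasers remove, and reader proteins bind them. Methylation of lysine 4 on histone H3 (H3K4) by the KMT2 and SETD1 proteins marks promoters and enhancers, and methylation of lysine 27 (H3K27) by EZH2 or EZH1 in Polycomb repressive complex 2 marks silenced genes. The SUV39H proteins write trimethylated H3K9 in heterochromatin, KMT5A writes monomethylated H4K20 in dividing cells, and acetylation by EP300, CREBBP and the KAT proteins marks active chromatin until HDACs and sirtuins remove it. In neural progenitors EZH2 is the prevailing H3K27 methyltransferase, whereas EZH1 is the one kept in cells that no longer divide. Kmt2d, an H3K4 methyltransferase of enhancers, is the gene altered in the mutant line and in most people with Kabuki syndrome.

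The cells were neural stem and progenitor cells dissected from hippocampal dentate gyrus of embryos from crosses between C57BL/6J females and Kmt2d+/βgeo males, on embryonic day 18 by the labels, whereas the study's methods name the day before. One set of 4 libraries carried the label Kmt2d+/βgeo, with the gene-trap allele Mll2Gt(RRt024)Byg named as a heterozygous germline change, and the other set was labelled wildtype with the strain C57BL/6J, the growth protocol calling these embryos Kmt2d+/+ littermates. All cultures were kept with EGF and FGF2, sampled undifferentiated on day 0, and sampled again 2, 4 and 8 days after both factors were removed. Each label and day had 1 library of the 10x 3′ version 3 chemistry. Genotype, embryo and culture therefore cannot be told apart, no test between groups was made, and each interval below covers counting error only.

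The 8 libraries held 2534 to 4900 cells with a median of 3972 to 11230 UMIs per cell on the measured genes, and the enzymes took 0.381% to 0.531% of these UMIs. The Kmt2d+/βgeo library of day 8 had the fewest UMIs per cell. On day 4 the libraries of the 2 labels were nearly alike, with 0 of 7459 genes differing 2-fold and an SD of log2 ratios over all genes of 0.109, against 0.342 to 0.492 on the other days. Whether the day 4 label Kmt2d+/βgeo is right could not be checked from these values, so the day 4 pair is not read as an agreement of 2 genotypes, and its ratios between the labels are given as values. Any pair of libraries shared at most 10 cell barcodes. Of the progenitor markers, Vim, Pax6, Msi1, Fabp7 and Sox9 were measured, at a summed level of 60.4 to 128. Nes, Sox2, Hes1 and Hes5 were not analysed here. Most of the sum was Vim and Fabp7 in every library, and its genes did not move together. Their day 8 over day 0 log2 ratios, Kmt2d+/βgeo libraries first, were 0.31 and 1.52 for Vim and -1.20 and -0.80 for Fabp7. They were 3.47 and 3.02 for Msi1, 2.15 and 1.35 for Sox9, and 0.86 and 0.76 for Pax6. The summed level of 5 astrocyte markers (Apoe, Gja1, S100b, Aldh1l1, Slc1a3) was 23.7 and 17.1 on day 0 and 108 and 249 on day 8. The Kmt2d+/βgeo library comes first, as in every pair of values below. On day 8 most of this sum was Apoe, at 94.7 and 230, from 14.1 and 5.88 on day 0. The log2 ratio of day 8 over day 0 was 3.83 and 4.33 for Gja1 and 0.20 and 1.49 for S100b. It was 0.18 and 0.37 for Slc1a3, and -0.33 and 0.23 for Aldh1l1. The 3 neuronal markers measured (Map2, Prox1, Rbfox3) summed to 3.07 to 4.47, of which Map2 was 2.85 to 4.00. Rbfox3 was at 0.00536 and 0.0174 on day 0 and at 0.113 and 0.0472 on day 8. Olig2, the oligodendrocyte lineage marker measured, was at 5.53 and 8.09 on day 0 and at 1.48 and 0.911 on day 8, and Dynlrb2, from the ependymal list, at 0.0359 to 0.378 over all libraries. The listed markers of microglia, endothelium and mural cells or fibroblasts were not analysed here. In such mixtures, fewer cells of a type and less RNA per cell cannot be told apart in a library's mean.

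The H3K27 methyltransferases Ezh2 and Ezh1 and the H3K9 methyltransferases Suv39h1 and Suv39h2, which write repressive marks, are shown first. In the deposited GRCm38 gene table, Ezh2 lies on chromosome 6 at 47530139 to 47595341, Ezh1 on chromosome 11 at 101191115 to 101226463, Suv39h1 on chromosome X at 8061171 to 8074760, and Suv39h2 on chromosome 2 at 3455815 to 3475031, all 4 on the minus strand. Because Ezh2, Suv39h1 and Suv39h2 moved with the cell cycle below, the 250 bases upstream of their RefSeq start sites (GRCm38.p6, gene strand) are shown, with Ezh1 for contrast. These are chr6:47595031-47595280 for Ezh2, chr11:101226464-101226713 for Ezh1, chrX:8074362-8074611 for the second start site of Suv39h1, which lies inside the tabled gene, and chr2:3474987-3475236 for Suv39h2. By these coordinates the Ezh2 window also lies inside its tabled gene, and the Suv39h2 window lies partly inside. The Ezh2 window therefore does not cover bases upstream of the tabled gene. Capitals mark a core word of the E2F factors that drive S-phase genes, searched on both strands. The first word searched was TTCCCGC and the second word searched was TTCGCGC. The third word searched was TTGCCGC and the fourth word searched was TTGGCGC.
Ezh2: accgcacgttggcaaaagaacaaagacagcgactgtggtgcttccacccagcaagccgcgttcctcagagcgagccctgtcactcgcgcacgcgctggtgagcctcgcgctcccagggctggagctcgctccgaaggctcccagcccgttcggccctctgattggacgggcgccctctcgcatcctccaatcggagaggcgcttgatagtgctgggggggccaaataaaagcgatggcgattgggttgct
Ezh1: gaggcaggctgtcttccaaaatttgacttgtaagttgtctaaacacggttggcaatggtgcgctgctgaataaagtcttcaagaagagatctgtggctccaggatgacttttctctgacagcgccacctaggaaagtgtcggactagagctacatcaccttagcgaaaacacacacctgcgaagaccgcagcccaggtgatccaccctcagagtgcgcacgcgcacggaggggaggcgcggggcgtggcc
Suv39h1: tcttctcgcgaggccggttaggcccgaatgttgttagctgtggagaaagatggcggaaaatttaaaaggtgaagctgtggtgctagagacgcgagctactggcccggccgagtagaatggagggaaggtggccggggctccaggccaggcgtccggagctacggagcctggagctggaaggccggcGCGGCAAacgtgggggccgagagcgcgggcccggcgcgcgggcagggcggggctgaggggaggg
Suv39h2: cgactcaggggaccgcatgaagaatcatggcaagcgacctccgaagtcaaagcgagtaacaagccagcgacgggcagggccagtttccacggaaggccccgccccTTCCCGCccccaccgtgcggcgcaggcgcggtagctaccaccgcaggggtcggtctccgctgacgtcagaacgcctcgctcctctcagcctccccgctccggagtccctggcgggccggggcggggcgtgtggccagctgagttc

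The windows of Suv39h1 and Suv39h2 each held 1 E2F word, and those of Ezh2 and Ezh1 held 0, as did the other start site of Suv39h1. The word was in the windows of 7.89% of 32851 mouse promoters of the same length. Of the 60 enzymes found in the promoter table, 9 had it (Kdm3a, Kdm5b, Kmt5a, Kmt5c, Prdm4, Prmt1, Sirt4, Suv39h1 and Suv39h2), in 9 of their 83 windows. Of these 9, Suv39h1 and Suv39h2 were counted below as higher in cycling cells and Kdm5b as lower. Nsd2, also counted as higher there, is not among the windows shown. TTTGAA, the core of the CHR element of G2 and mitosis genes, was in 16% of all promoters and in 6 of the enzymes' 83 windows. These belonged to 6 of the 60 enzymes (Hdac6, Hdac8, Hdac9, Kat2b, Kdm1b and Sirt7). These matches describe the letters of the windows and are not binding sites.

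The first question was how the enzymes' RNA differed after growth factor withdrawal. A gene was compared where its level was at least 0.1 in either library of a pair, in both labels, and counted where both labels passed 2-fold in the same direction. On day 8 over day 0, 9 of 70 enzymes were lower (12.9%, against 8.02% of all 7572 genes compared) and 3 were higher (4.29%, against 13.2% of all genes). The 9 lower enzymes were Ezh2, Prmt1, Prmt5, Prmt7, Hdac2, Suv39h1, Suv39h2, Kmt5a and Kdm5b, and the 3 higher were Kat2b, Ezh1 and Setd7. A gene that is low in 1 group passes this minimum through its other group alone. With the minimum asked of both libraries of each pair, an alternative chosen after seeing the data, 7 of 62 enzymes were lower (background 6.21%) and 1 was higher (Setd7, background 8.22%). Suv39h1, Suv39h2, Ezh1 and Kat2b were no longer compared. With the minimum in either library, the median log2 ratio of the 70 was -0.11 and -0.24, and that of all genes was 0.09 and 0.04. Within 1 label alone, 6 of 71 enzymes were higher (background 19%) and 12 lower (13.9%) in the Kmt2d+/βgeo libraries, and 5 of 70 were higher (16.3%) and 11 lower (10.9%) in the wild type libraries. Setd1b, Kdm1b and Hdac7 were added to the higher genes and Hdac1, Kat7 and Kat8 to the lower ones in the Kmt2d+/βgeo libraries, whereas Sirt2 and Sirt3 were added above and Setd5 and Kdm2b below in the wild type libraries.

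**Figure D1:**
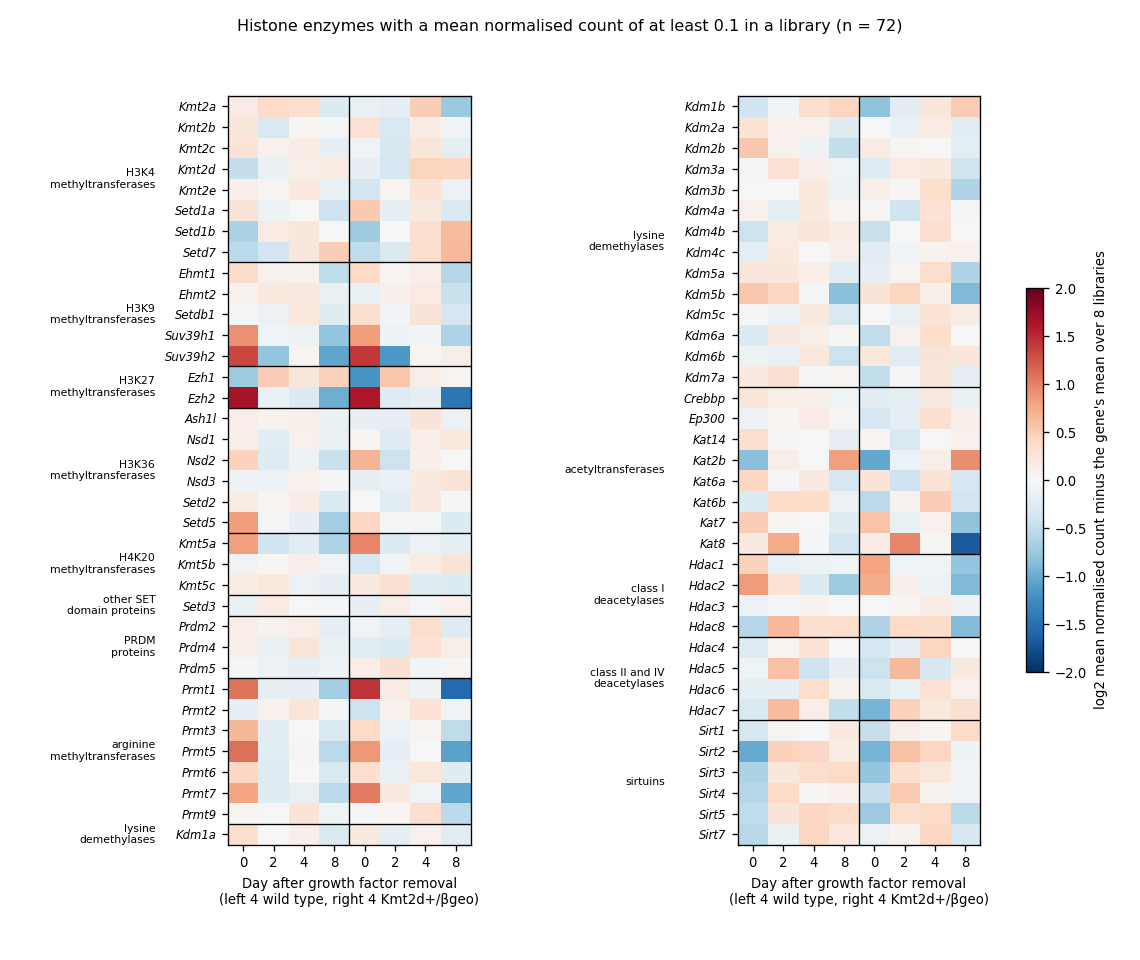
Level of 72 histone enzymes in 8 libraries. Each row is a gene, grouped by role, and each column a library by label and day. Color gives the log2 level minus the gene's own mean over the libraries, so rows do not rank genes. Ezh2, Prmt1, Prmt5, Suv39h1 and Suv39h2 are highest on day 0 in both labels, and Kat2b is highest on day 8.

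On day 2, 5 of 70 enzymes were lower in both labels (Ezh2, Suv39h2, Kmt5a, Prmt1 and Prmt5, background 4.44%) and 2 were higher (Sirt2 and Ezh1, background 6.52%). On day 4, 4 of 70 were lower (Ezh2, Suv39h2, Kmt5a and Prmt1, background 4.67%) and 1 was higher (Sirt2, background 10.2%). The day 4 counts depended on the scaling, with 4 higher (background 11%) and 5 lower (5.18%) by summed UMIs, 4 higher (10.2%) and 5 lower (4.75%) with thinned cells, and 1 higher (8.45%) and 8 lower (6.2%) after centring on the median of all genes. The share of enzymes lower on day 4, 5.71%, was near the background. These 4 enzymes, Ezh2, Suv39h2, Kmt5a and Prmt1, were counted as lower on every later day. The S-phase and G2M lists on which the cell-cycle comparison rests were also summed. Of these lists, 21 of 43 S-phase genes and 18 of 52 G2M genes were analysed here. The summed level of 21 S-phase genes was 13.6 and 10.7 on day 0, 3.75 and 3.42 on day 2, and 3.88 and 4.47 on day 8. That of 18 G2M genes was 23.1 and 20.6 on day 0, 7.23 and 7.46 on day 2, and 10.8 and 11 on day 8. The largest parts of the G2M sum on day 8 were Ckap5 (2.54 and 3.34) and Cbx5 (3.615 and 2.56). Their day 8 over day 0 log2 ratios were 0.76 and 1.43, and 0.16 and 0.04. The other G2M genes were lower in both labels, with ratios from -0.68 (G2e3) to -5.99 (Top2a), both in the Kmt2d+/βgeo libraries.

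**Figure D2:**
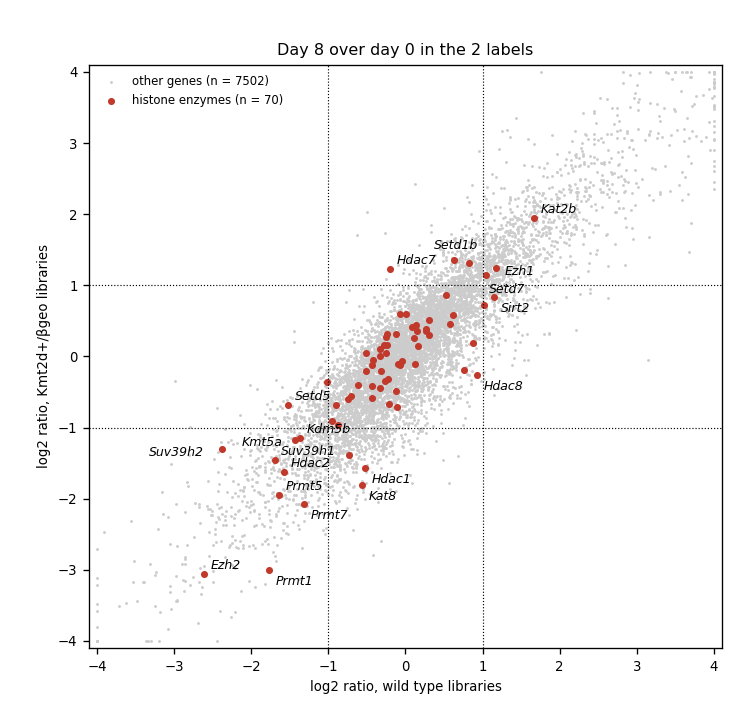
log2 ratio of levels, day 8 over day 0, in the wild type libraries (x axis) and in the Kmt2d+/βgeo libraries (y axis). Red points are 70 histone enzymes, grey points are 7502 other genes (values past 4 are drawn at the edge), and dotted lines mark 2-fold. Of the enzymes, 9 lie in the lower left corner and 3 in the upper right.

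The 2 H3K27 methyltransferases had day 8 ratios of opposite sign. Ezh2 stood at 1.59 in the Kmt2d+/βgeo library and 1.62 in the wild type library on day 0, at 0.434 and 0.472 on day 2, at 0.459 and 0.426 on day 4, and at 0.19 and 0.264 on day 8. Its 2 day 0 values lay above all 6 later ones, and its lowest 2 were those of day 8. The day 8 over day 0 difference was 8.37-fold and 6.12-fold lower (log2 ratio -3.07 and -2.61). By summed UMIs the log2 ratio was -3.17 (95% counting interval -3.35 to -3.00) and -2.86 (-2.97 to -2.74). With each cell thinned to 3000 UMIs, a UMI of Ezh2 was found in 37.1% and 38.5% of day 0 cells (unthinned 68.7% and 68.8%) and in 6.41% (exact binomial interval 5.42 to 7.51) and 7.89% (6.98 to 8.87) of day 8 cells (unthinned 8.3% and 17.3%). Free RNA in droplets also gives UMIs, and its part in these shares was not tested.

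Ezh1 stood at 0.052 and 0.0715 on day 0, 0.173 and 0.165 on day 2, 0.127 and 0.137 on day 4, and 0.123 and 0.161 on day 8. All 6 later values lay above both day 0 values. The log2 ratio of day 8 over day 0 was 1.24 and 1.17, or by summed UMIs 1.32 (1.04 to 1.60) and 1.22 (1.02 to 1.42). Both day 0 levels lay under the minimum of 0.1, so Ezh1 was compared through its later levels alone. These were small numbers of molecules, 299 and 420 UMIs on day 0 and 174 and 427 on day 8.

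Of the other genes of Polycomb repressive complex 2, 7 were compared on day 8, and Mtf2, an accessory subunit, was the 1 counted as lower (log2 ratio -1.01 and -1.05), with 0 higher. The core subunits Suz12 and Eed had smaller ratios of -0.47 and -0.64, and -0.61 and -0.52. Jarid2, an accessory subunit, was at 0.899 and 0.415 on day 8, which made it the 1 listed Polycomb gene past 2-fold between the labels there.

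Both SUV39H genes had their highest levels on day 0. Suv39h1 stood at 0.263 and 0.277 on day 0, 0.137 and 0.138 on day 2, 0.141 and 0.136 on day 4, and 0.0955 and 0.0854 on day 8. Suv39h2 stood at 0.167 and 0.159 on day 0, 0.0284 and 0.0364 on day 2, 0.0642 and 0.0651 on day 4, and 0.0676 and 0.0305 on day 8. The day 8 over day 0 log2 ratios were -1.46 and -1.70 for Suv39h1 and -1.30 and -2.38 for Suv39h2. All later levels of Suv39h2 and both day 8 levels of Suv39h1 lay under 0.1, so these comparisons passed the minimum through day 0 alone. The day 8 values of Suv39h2 rest on 91 and 77 UMIs. Ehmt1 and Ehmt2, which write dimethylated H3K9, were lower by less, at -0.96 and -0.88, and -0.32 and -0.23, and did not reach 2-fold.

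Kmt5a, the H4K20 monomethyltransferase, stood at 1.67 and 1.49 on day 0, 0.698 and 0.639 on day 2, 0.776 and 0.727 on day 4, and 0.739 and 0.55 on day 8, with all 6 later values below both day 0 values. Its day 8 log2 ratios were -1.17 and -1.44. Kmt5b and Kmt5c, which add the second and further methyl groups, had ratios of 0.59 and 0.01, and -0.45 and -0.33.

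Among the arginine methyltransferases, 3 of 7 were lower and 0 higher on day 8, where the shares of all genes, 8.02% lower and 13.2% higher, are the background of every role group and related list. Prmt1, which makes most asymmetric dimethylarginine, stood at 4.02 and 3.12 on day 0, 1.64 and 1.29 on day 2, 1.37 and 1.31 on day 4, and 0.502 and 0.912 on day 8. The log2 ratio was -3.00 (by summed UMIs -3.02, interval -3.13 to -2.91) and -1.78 (-1.85, interval -1.92 to -1.79). Prmt5, the main symmetric dimethyltransferase, stood at 0.602 and 0.707 on day 0, 0.293 and 0.281 on day 2, 0.331 and 0.335 on day 4, and 0.157 and 0.226 on day 8, with log2 ratios of -1.94 and -1.65. Prmt7, which adds single methyl groups, went from 0.517 and 0.434 on day 0 through 0.283 and 0.211 on day 2 and 0.241 and 0.226 on day 4 to 0.123 and 0.175 on day 8, with ratios of -2.08 and -1.31. The remaining arginine methyltransferases, Prmt2, Prmt3, Prmt6 and Prmt9, had ratios from -0.95 to 0.36.

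**Figure D3:**
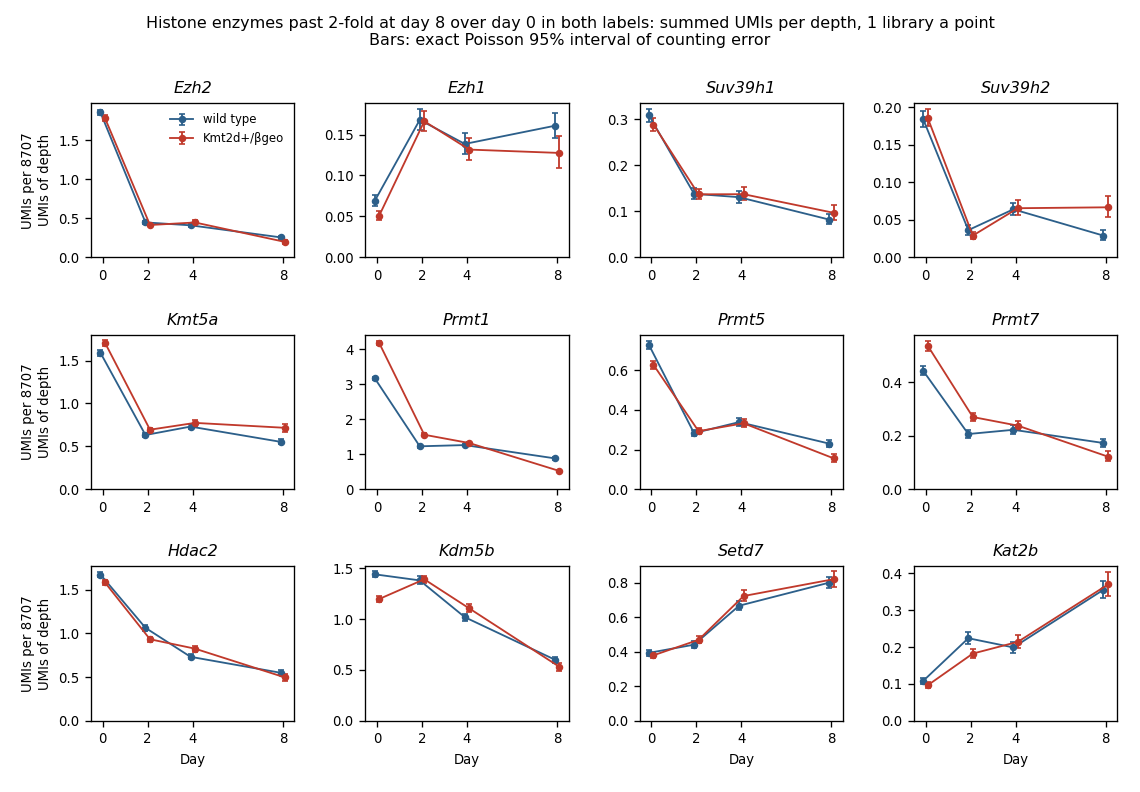
Summed UMIs per 8707 UMIs of depth (y axis) by day after growth factor removal (x axis) for the 12 enzymes past 2-fold on day 8 in both labels. Each point is 1 library (blue wild type, red Kmt2d+/βgeo) and bars are exact Poisson 95% intervals of counting error. Ezh2, Suv39h2, Kmt5a, Prmt1 and Prmt5 are below their day 0 levels by day 2, Hdac2 and Kdm5b have their lowest levels on day 8, and Setd7 and Kat2b their highest.

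Hdac2, a class I deacetylase of the Sin3, NuRD and CoREST complexes, stood at 1.54 and 1.66 on day 0, 0.987 and 1.12 on day 2, 0.857 and 0.758 on day 4, and 0.496 and 0.559 on day 8. The log2 ratio on day 8 was -1.63 and -1.57. Its paralog Hdac1 was at 1.23 and 0.979 on day 0 and 0.417 and 0.677 on day 8 (log2 ratio -1.57 and -0.53), so that it passed 2-fold in the Kmt2d+/βgeo libraries alone. Hdac3, another class I deacetylase, was within 0.732 to 0.883 in all 8 libraries and had the smallest range of the 72 enzymes.

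Of the sirtuins, which consume NAD, 0 of 5 compared were counted on day 8, with ratios from -0.19 (Sirt7 in the Kmt2d+/βgeo libraries) to 1.15. Sirt2, mostly a cytoplasmic deacetylase, stood at 1.39 and 1.33 on day 0, 4.02 and 3.66 on day 2, 3.56 and 3.57 on day 4, and 2.5 and 2.95 on day 8. Its ratio passed 2-fold in both labels on days 2 (1.53 and 1.46) and 4 (1.35 and 1.42), and in wild type alone on day 8 (0.84 and 1.15). Sirt3, the mitochondrial deacetylase, had day 8 ratios of 0.72 and 1.01.

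Of the acetyltransferases, Kat2b, the PCAF enzyme, was the 1 of 8 past 2-fold in both labels. Its lowest level, in the Kmt2d+/βgeo library of day 0, lay just under the minimum of 0.1. Kat2b stood at 0.0972 and 0.11 on day 0, 0.18 and 0.213 on day 2, 0.214 and 0.195 on day 4, and 0.375 and 0.348 on day 8. Its log2 ratio was 1.95 (by summed UMIs 1.94, interval 1.76 to 2.12) and 1.66 (1.72, interval 1.57 to 1.86). Ep300 and Crebbp, paired coactivators that acetylate H3K27, had ratios of 0.44 and 0.14, and 0.11 and -0.33. Of 22 other acetyltransferase complex subunits compared, Sgf29 of the SAGA complex was lower (-1.10 and -1.31) and 0 were higher.

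Setd7, an H3K4 monomethyltransferase that also methylates other proteins, was the 1 H3K4 methyltransferase past 2-fold in both labels. It stood at 0.395 and 0.384 on day 0, 0.456 and 0.43 on day 2, 0.711 and 0.656 on day 4, and 0.876 and 0.79 on day 8. The ratio was 1.15 and 1.04, and with thinned cells 0.92 and 1.20, where the Kmt2d+/βgeo libraries stayed under 2-fold. Thinning also left out 765 cells of the Kmt2d+/βgeo library of day 8, and the part of this was not tested. Kmt2d itself was 0.193 and 0.157 on day 0 and 0.291 and 0.241 on day 8 (0.59 and 0.62, with the first at 0.17 when thinned). Kmt2a, Kmt2b and Kmt2c had negative ratios in both labels, from -0.58 to -0.12, and Kmt2e had 0.27 and -0.25. Setd1b had 1.35 and 0.63, and Setd1a, near the minimum level, was compared in the Kmt2d+/βgeo libraries alone, at -0.82. Of 10 listed genes of MLL and COMPASS complexes, Psip1, which tethers the menin complex to chromatin, was lower (-1.29 and -1.16) and 0 were higher.

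Kdm5b, an H3K4 demethylase, was the 1 of 15 demethylases counted on day 8. It stood at 1.28 and 1.56 on day 0, 1.45 and 1.44 on day 2, 1.15 and 1.06 on day 4, and 0.58 and 0.603 on day 8. Unlike Ezh2 it was near its day 0 level on day 2, and its log2 ratio on day 8 was -1.15 and -1.37. The H3K27 demethylase Kdm6a had day 8 ratios of 0.51 and 0.31, its paralog Kdm6b 0.01 and -0.32, and the H3K4 demethylase Kdm1a -0.40 and -0.62. None of the 6 H3K36 enzymes was counted, though Setd5, a SET protein whose own activity is debated, had -0.69 and -1.52. Prdm2 (-0.20 and -0.31) and Setd3 (0.25 and 0.11) moved little.

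Of 16 writers and erasers outside the name rule, Jmjd6, a lysyl hydroxylase, was lower on day 8 (-1.65 and -1.11) and 0 were higher. Of 15 genes for readers of histone marks, Phc2 of Polycomb complex 1 was lower (-1.12 and -1.11) and 0 were higher.

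The second question was which enzymes vary with cell-cycle RNA among the undifferentiated cells. Day 0 cells of each label were ranked by the share of their UMIs on 39 S and G2M list genes, none of them an enzyme counted here, and the upper 1/3 was set over the lower 1/3 (1444 cells each in the Kmt2d+/βgeo library and 1619 in the wild type library). The split is a range of a score and not a cell type. Below, the upper 1/3 is called cycling and the lower 1/3 non-cycling. These names do not mean that the lower 1/3 had left the cell cycle. Within 10% of the lower bound lay 509 and 722 cells, and within 10% of the upper bound 271 and 204. The upper 1/3 was also deeper, with a median of 14930 against 9808 UMIs and of 13050 against 8146. Markers differed as well. The log2 ratio of the upper over the lower 1/3 was -2.09 and -1.88 for Apoe, and -1.46 and -1.61 for S100b. It was -0.39 and -0.57 for Aldh1l1, -0.21 and -0.12 for Slc1a3, and 0.15 and 0.135 for Gja1. Pax6 had 1.40 and 1.04, Vim -0.52 and -0.52, Sox9 -0.09 and -0.38, Msi1 -0.15 and -0.37, and Fabp7 -0.15 and 0.01. The part of cell composition in the split was not tested.

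Of 69 enzymes compared, 4 were higher in the cycling cells in both labels (Suv39h2, Ezh2, Suv39h1 and Nsd2, 5.80%, against 4.15% of all genes). Another 2 were lower (Kdm7a and Kdm5b, 2.90%, against 0.841%). All genes of this comparison include the list genes used for the ranking, whose higher level in the upper 1/3 follows from it. Suv39h2 lay under 0.1 in the non-cycling cells of both labels and passed the minimum through the cycling cells alone. With the minimum asked of both sets of cells, 3 of 65 were higher (Ezh2, Suv39h1 and Nsd2, background 2.35%) and the same 2 were lower (0.592%). Suv39h2 was at 0.333 and 0.312 in cycling and 0.0576 and 0.0787 in non-cycling cells (log2 ratio 2.53 and 1.99). Ezh2 was at 3.01 and 3.08 against 0.635 and 0.805 (2.25 and 1.94). Suv39h1 was at 0.443 and 0.444 against 0.126 and 0.186 (1.82 and 1.26), and Nsd2, an H3K36 dimethyltransferase, at 1.52 and 1.29 against 0.588 and 0.598 (1.37 and 1.11). The first 3 of these are the same H3K27 and H3K9 genes that were lower on day 8.

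**Figure D4:**
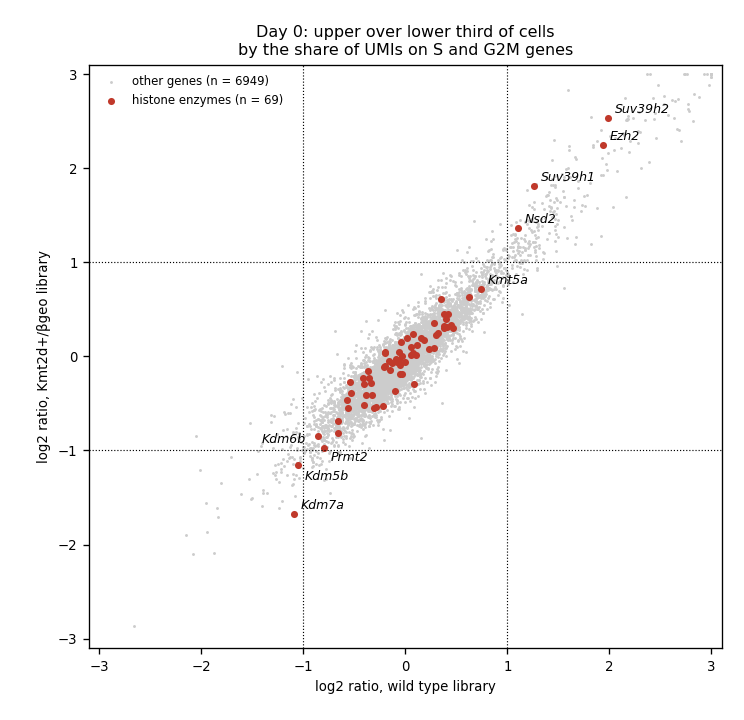
log2 ratio of levels in the upper over the lower 1/3 of day 0 cells by their share of UMIs on S and G2M genes, in the wild type library (x axis) and the Kmt2d+/βgeo library (y axis). Red points are 69 histone enzymes, grey points 6949 other genes (values past 3 are drawn at the edge), and dotted lines mark 2-fold. Ezh2, Suv39h1, Suv39h2 and Nsd2 lie in the upper right corner, and Kdm5b and Kdm7a in the lower left.

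Kmt5a was higher in cycling cells by less than 2-fold (0.72 and 0.74), as were Hdac2 (0.25 and 0.32), Prmt1 (0.34 and 0.44), Prmt5 (0.31 and 0.41) and Prmt7 (0.30 and 0.46). Among genes lower in cycling cells, Kdm7a, a demethylase of H3K9 and H3K27, was at 0.143 and 0.306 against 0.459 and 0.654 (-1.68 and -1.09). Kdm5b was at 0.756 and 0.943 against 1.68 and 1.96 (-1.15 and -1.05). Kdm6b had -0.84 and -0.86, and Sirt2 -0.68 and -0.66. Kmt2d differed little, with -0.07 and -0.14. Dividing the cells instead by the presence of a Top2a UMI after thinning counted 2 enzymes as higher (background 2.08%) and 0 as lower (0.0144%). These were Suv39h2 (1.41 and 1.37) and Ezh2 (1.34 and 1.28), whereas Suv39h1 had 0.99 and 0.91, Nsd2 0.87 and 0.84, Kdm5b -0.68 and -0.77, and Kdm7a -0.99 and -0.69. In the related lists, the genes past 2-fold in both labels were Psip1 and Paxip1 of 10 MLL and COMPASS genes, Suz12 (1.22 and 1.06) of 7 Polycomb genes, Jade1 and Sgf29 of 22 acetyltransferase subunits and Hat1 (2.17 and 1.99) of 16 other writers and erasers, all higher. None of 15 readers passed.

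Day 8 was then set over only the lower 1/3 of day 0 cells, which have the least cell-cycle RNA. The change between a gene's ratio here and its ratio against all day 0 cells holds no value of the later day. It restates the day 0 split and is no separate finding about the later day. Against the lower 1/3, 7 of the 12 enzymes were still counted, of 69 compared. Of these, 1 was higher (Kat2b, background 12.1%) and 6 were lower (Ezh2, Prmt1, Prmt5, Prmt7, Hdac2 and Kdm5b, background 6.59%). Ezh2 had -1.74 and -1.61 in place of -3.07 and -2.61, past 2-fold in both labels. On the earlier days it was under 2-fold against these cells, with -0.55 and -0.77 on day 2 and -0.47 and -0.92 on day 4. On day 2, 1 enzyme (Prmt1, background 2.34%) was lower against these cells in place of 5 and 2 were higher (Sirt2 and Ezh1, 4.46%), and on day 4, 1 was lower (Prmt1, 3.73%) in place of 4 and 1 was higher (Sirt2, 8.43%). On day 8, Prmt1 had -2.77 and -1.53, Prmt5 -1.74 and -1.39, Prmt7 -1.86 and -1.02, and Hdac2 -1.50 and -1.41, each nearer to its value against all day 0 cells than Ezh2 was. Kdm5b, lower in cycling cells, had larger differences of -1.54 and -1.70. Suv39h1 had -0.40 and -1.12 and Kmt5a -0.77 and -1.11, each under 2-fold in the Kmt2d+/βgeo libraries, and Suv39h2 was below the minimum level. Ezh1 had 0.96 and 1.15, and Setd7 1.04 and 0.89. Nsd2, at -0.68 and -0.90 against all day 0 cells, had 0.05 and -0.42. Day 0 and day 8 cells also differ in marker levels as given above, and the part of cell composition in these ratios was not tested.

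The third comparison was between the labels on each day. It counted 0 of 68 enzymes on day 0 (background 0.674% higher and 0.871% lower in the Kmt2d+/βgeo library), 0 of 69 on day 2 (1.68% and 1.15%) and 0 of 69 on day 4 (0% and 0%). On day 8, 0 of 67 were higher (2.06%) and 2 were lower (Kat8 and Hdac8, 2.99%, against 2.81%). The SD of the enzymes' log2 ratios was 0.24, 0.19, 0.09 and 0.41 on the 4 days in order, below that of all genes on each day (0.34, 0.38, 0.11 and 0.49).

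Kmt2d, on chromosome 15 at 98831669 to 98871204, was higher in the Kmt2d+/βgeo library on day 0 (0.193 against 0.157), day 4 (0.295 against 0.237) and day 8 (0.291 against 0.241), and lower on day 2 (0.171 against 0.197). The log2 ratios were 0.30, -0.21, 0.32 and 0.27. By summed UMIs they were 0.19 (interval 0.07 to 0.32), -0.18 (-0.33 to -0.04), 0.30 (0.16 to 0.44) and 0.12 (-0.07 to 0.31). On day 8 the ratio was -0.15 with thinned cells, which left out 765 cells of the Kmt2d+/βgeo library. No reduction of Kmt2d RNA by 2-fold, and no common direction, was seen over the 4 days. Its day 4 ratio was the largest in size of the 69 enzymes compared, where the SD over all genes was 0.109. That is the pair whose label could not be checked. Where the trap lies relative to the 3′ tags is not given in the sources at hand, so these values do not check the labels.

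**Figure D5:**
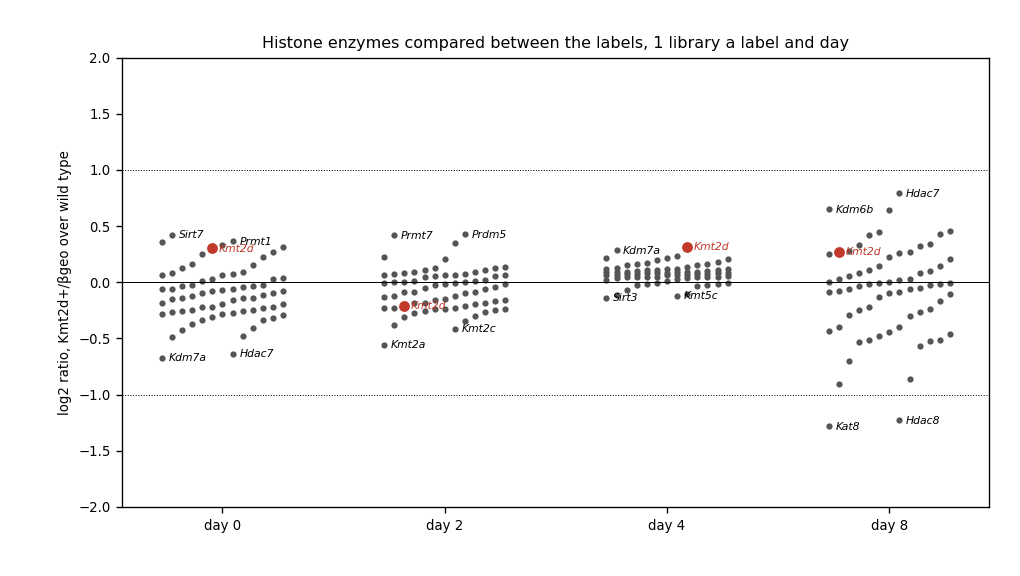
log2 ratio of levels, Kmt2d+/βgeo library over wild type (y axis), for the 67 to 69 histone enzymes compared on each day (x axis, points spread sideways for visibility). Kmt2d is in red, the 2 highest and 2 lowest enzymes of each day are named, and dotted lines mark 2-fold. Kat8 and Hdac8 on day 8 are the only points past a line.

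The other KMT2 genes with lower levels in the Kmt2d+/βgeo library on several days were Kmt2a (-0.32, -0.56, 0.17 and -0.46 on days 0, 2, 4 and 8) and Kmt2c (-0.33, -0.42, 0.08 and -0.01), whereas Kmt2b was within 0.12 of 0 on every day. Kmt2e had -0.49 on day 0 (1.55 against 2.17) and lay within 0.08 of 0 on the later days. Kdm6a, the H3K27 demethylase that works in the KMT2C and KMT2D complexes, had -0.22, -0.09, 0.24 and -0.02, Ep300 had -0.22, -0.23, 0.16 and 0.08, and Crebbp had -0.47, -0.30, 0.08 and -0.04. Ezh2 had -0.02, -0.12, 0.11 and -0.48. No gene among these reached 2-fold on any day.

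Kat8, the acetyltransferase of H4K16, stood at 0.257 and 0.263 on day 0, 0.454 and 0.389 on day 2, 0.236 and 0.226 on day 4, and 0.0732 and 0.178 on day 8. The labels differed past 2-fold on day 8 alone, with a log2 ratio of -1.28 (by summed UMIs -1.14, interval -1.45 to -0.83), which rests on 107 and 458 UMIs. Its Kmt2d+/βgeo level on day 8 lay under the minimum of 0.1, so the pair was compared through the wild type library alone. Hdac8, a class I deacetylase that also deacetylates cohesin, stood at 0.244 and 0.251 on day 0, 0.483 and 0.581 on day 2, 0.478 and 0.466 on day 4, and 0.203 and 0.476 on day 8. Its day 8 log2 ratio was -1.23 (by summed UMIs -1.21, interval -1.40 to -1.02), and with thinned cells the 2 genes had -1.08 and -1.11. Both values come from the shallowest library, in which the astrocyte marker sum, mostly Apoe, was also below the wild type value. The part of depth or composition in them was not tested.

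Prmt1 was higher in the Kmt2d+/βgeo library on days 0 and 2 (0.36 and 0.35) and lower on day 8 (-0.86, by summed UMIs -0.76, interval -0.89 to -0.64). Hdac1 had 0.33 on day 0 and -0.70 on day 8. Kdm6b had 0.65 on day 8, which became 0.07 with thinned cells, with the same 765 cells left out. Among the genes of the related enzyme complexes, other writers and erasers and readers, Jarid2 was the 1 gene past 2-fold between the labels on any day, whereas Top2a of the G2M list (lower on day 8), the neuronal marker Rbfox3 (higher on day 8) and the astrocyte markers Apoe (higher on day 0, lower on day 8) and Gja1 (lower on day 2) also passed it.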

How the data were processed

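The libraries were sequenced with 10x 3′ tags and UMIs. Per the labels and the study's methods, the authors quantified spliced molecules with Alevin (Salmon 1.3.0) against GRCm38, removed cells with fewer than 200 genes and outliers including doublet scores, and removed mitochondrial genes and genes seen in fewer than 20 cells. Seurat 3.2.2 is also listed. The deposited matrix holds log2 values of library-size-normalised counts plus 1 for 9140 genes and 30408 cells. Total UMIs per cell, which are the authors' estimated counts, come with a deposited table of cells.

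Values were turned back to normalised counts, which summed to 8707 in every cell. Within each cell, the most frequent value stood for 1 UMI, after which 86.7% of nonzero values lay within 0.01 UMIs of a whole number. Rounded estimates were used for sums, for exact Poisson, binomial and conditional ratio intervals (95%), and for thinning without replacement to 3000 UMIs. Thinning left out 765 cells of the day 8 Kmt2d+/βgeo library and at most 23 of any other. Thinned values of the day 8 Kmt2d+/βgeo library thus rest on fewer cells, and the part of this in their shifts was not tested.

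With 1 library per group no p-value was computed. Named genes were a list fixed by role, every enzyme counted in a comparison and the widest-ranging enzyme of each role group. Sirt3, Kat7, Kdm1b, Kdm2b, Kmt5b, Kmt5c and the remaining Prmt genes were named after their values were seen. The enzymes, lists and tests were chosen with earlier results of these data known. The list of deacetylase complex subunits is not reported here. All 77 genes matched GENCODE M21 with the same coordinates. Kat14, Setd1a and Sirt7 overlap another coding gene on the same strand, so their counts are uncertain. The scripts were tested on simulated data (Python 3.11.15, scipy 1.17.1).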

Additional observations from a re-analysis of the deposited data

Results flagged for a closer look

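Hdac7, a class IIa deacetylase, was the 1 enzyme whose ratio between the labels was past 0.5 on the log2 scale in opposite directions on day 0 and day 8. It stood at 0.165 in the Kmt2d+/βgeo library and 0.257 in the wild type library on day 0, 0.435 and 0.481 on day 2, 0.363 and 0.347 on day 4, and 0.388 and 0.224 on day 8. The log2 ratio was -0.64 on day 0 and 0.79 on day 8, a difference of 1.43. The ratio was -0.69 and 0.72 with cells thinned to equal depth. With 1 library per label and day the difference was not tested.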

How the results depend on the processing

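The balance of higher and lower enzymes on days 2 and 4 depended on the settings. With 1.5-fold in place of 2-fold, 2 enzymes (0 higher, 2 lower) were counted between the labels on day 0 and 8 (3 higher, 5 lower) on day 8, 19 (10 higher, 9 lower) on day 2 over day 0, 20 (12 and 8) on day 4, 23 (8 and 15) on day 8, and 12 (6 and 6) in cycling cells. The shares of all genes at 1.5-fold were 2.4% higher and 4.06% lower between the labels on day 0, 7.51% and 10.3% on day 8, 14.7% and 11.9% on day 2 over day 0, 20.1% and 10.7% on day 4, 23.1% and 17.1% on day 8, and 8.32% and 4.93% in cycling cells. A minimum level of 0.3 left 1 enzyme, Hdac8, lower between the labels on day 8 (all genes 1.89% higher and 3.03% lower). Against the lower 1/3 of day 0 cells by cell-cycle RNA, 3 enzymes (2 higher, 1 lower) were counted on day 2, 2 (1 and 1) on day 4 and 7 (1 and 6) on day 8. On day 4, summed UMIs counted 9 (4 higher, 5 lower), thinned cells 9 (4 and 5) and ratios centred on the median of all genes 9 (1 and 8), in place of 5 (1 and 4). The Top2a split of day 0 cells counted 2 enzymes (2 higher, 0 lower) in place of 6. Alternatives added after seeing the data used 1 label alone or asked the minimum of both libraries, which left 1 enzyme (Hdac8, lower) between the labels on day 8 (all genes 1.32% higher and 2.27% lower). The Kmt2d+/βgeo libraries alone gave 12 on day 2 (6 higher, 6 lower, all genes 10.7% higher and 6.74% lower) and 13 on day 4 (8 and 5, all genes 14.8% and 6.61%), and the wild type libraries alone gave 9 on day 4 (1 and 8, all genes 11.9% and 6.6%). The cause of these shifts was not tested. Of 178 ratios of the 37 named enzymes, 24 moved past their counting interval with summed UMIs and 40 with thinned cells. The mean of log2 values (of counts plus 1) is another scale, which compresses the ratios of low genes, so its sizes are not set against these intervals. The sign differed in 8, 14 and 15 ratios with these 3 settings, none with a size above 0.44. No paired analysis was possible because no result comes from a test. A fit with label and day as terms, which would take the days as replicates of a label, was not run. Depth limits Suv39h2, Ezh1 and Setd1a, which were at or below 0.1 in several libraries.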
